A study of Homo sapiens with 6 samples.

Results

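The genes described here make up the core machinery of autophagy in HepG2 cells. They were chosen by symbol and role, with earlier results of these data known, and the rule itself uses no measured value. In all, 38 symbols were listed for the ULK kinase complex, the class III phosphatidylinositol 3-kinase (PI3K) complexes, membrane supply, the ATG12 and ATG8 conjugation systems, the ATG8 proteins, cargo receptors and fusion with the lysosome. Of these, 37 were found among the 18404 genes with a deposited log2 FPKM value (fragments per unit of deposited gene length and library size). Of the 37, 35 passed the filter on low counts and were tested, among 15116 tested genes in all. ULK2, the 38th symbol, was found in the table of counts alone. HepG2 is a human liver carcinoma line. Cells grown in DMEM on 6-well plates had been given 10 µM oridonin, which is a plant diterpenoid, or 0.1% DMSO, the solvent control, for 48 h, with 3 libraries per treatment from total RNA. The labels do not say whether the oridonin wells held DMSO too, nor whether the 3 samples of a treatment came from separate cultures, so the spread behind each p-value is that among the samples given and may be technical. The series title gives the metabolic action of oridonin as its question.

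Autophagy delivers cytoplasm, organelles and protein aggregates to the lysosome inside a double membrane. The ULK kinase complex starts the process, a PI3K complex marks the membrane with the lipid PI3P, and lipid carriers make the membrane grow. A pair of ubiquitin-like conjugation systems then attaches ATG8 proteins to the membrane, where cargo receptors bind them, and SNARE and tether proteins fuse the closed vesicle with a lysosome. In the liver, autophagy turns over mitochondria, lipid droplets and glycogen. Transcript levels alone do not measure the flow of material through this pathway, since ATG8 lipidation and degradation happen to proteins.

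Total counts per library ran from 27674586 to 30739574 in oridonin and from 22250202 to 29352396 in DMSO. The quasi-likelihood test of edgeR called a gene at a Benjamini-Hochberg adjusted p under 0.05 over all 15116 tested genes. It called 6332 of them, of which 3118 were higher and 3214 lower in oridonin. With libraries scaled by total counts alone, in place of the trimmed mean of M values (TMM), the calls were 4487 higher and 2359 lower, so that 65.5% of the calls were higher instead of 49.2%. The 10 hepatocyte markers examined were all detected, and they summed to between 14901 and 17016 CPM (counts scaled to library size) in oridonin libraries, against 25155 to 28426 CPM in DMSO libraries. APOB was the highest, and the 9 others summed to between 8935 and 9871 CPM in oridonin, against 14628 to 15795 CPM in DMSO. Of these 10 markers, 1, FGB, rose and 7 fell. TTR and HNF4A were not called, with HNF4A at 254 ± 10.3 CPM in oridonin and 262 ± 7.48 CPM in DMSO (SD, n = 3 each). In bulk RNA, fewer cells of a type and less RNA per cell cannot be told apart.

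The autophagy machinery moved little and mostly upward. Of the 35 tested members, 16 rose, 2 fell and 17 were not called. The 16 that rose are 45.7% of the members tested, where 20.6% of all tested genes rose, and the 2 that fell, WIPI1 and MAP1LC3B, are 5.71%, where 21.3% of all tested genes fell. In either direction 51.4% of the members were called, where 41.9% of all tested genes were. Every tested member averaged 5 CPM or more, so the background was also taken over the 10438 tested genes that reach this level, which was set after the data were seen. Over those genes 23.0% rose and 26.6% fell, 49.6% in either direction.

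The changes were small. The log2 fold changes of the 35 tested members ran from -0.35 to 0.61, with a median of 0.10, against a median of 0.01 over all tested genes, whose 5th and 95th percentiles were -0.67 and 0.80. The point estimate lay above 0 for 28 of the 35. The median size of a called change was 0.25 among members and 0.38 among all called genes, and 0 of the 18 called members changed 2-fold. For 14 members (40.0%) the 3 oridonin libraries lay wholly above (13) or wholly below (1) the 3 DMSO libraries. Over all tested genes this held for 51.6%, with 26.0% above and 25.6% below, and for 58.3% of those that averaged 5 CPM or more. With both directions pooled, the share of members whose groups did not overlap was thus not above the background. By direction, the 13 of 35 above were a larger share than the 26.0% of all tested genes. The 1 of 35 below was a smaller share than the 25.6%. Shares by direction were not taken over the genes that averaged 5 CPM or more. The 3 largest changes were those of ATG16L1, ATG2A and ATG4A, and they were the only called members whose log2 fold change was 0.4 or more in size.

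**Figure D1:**
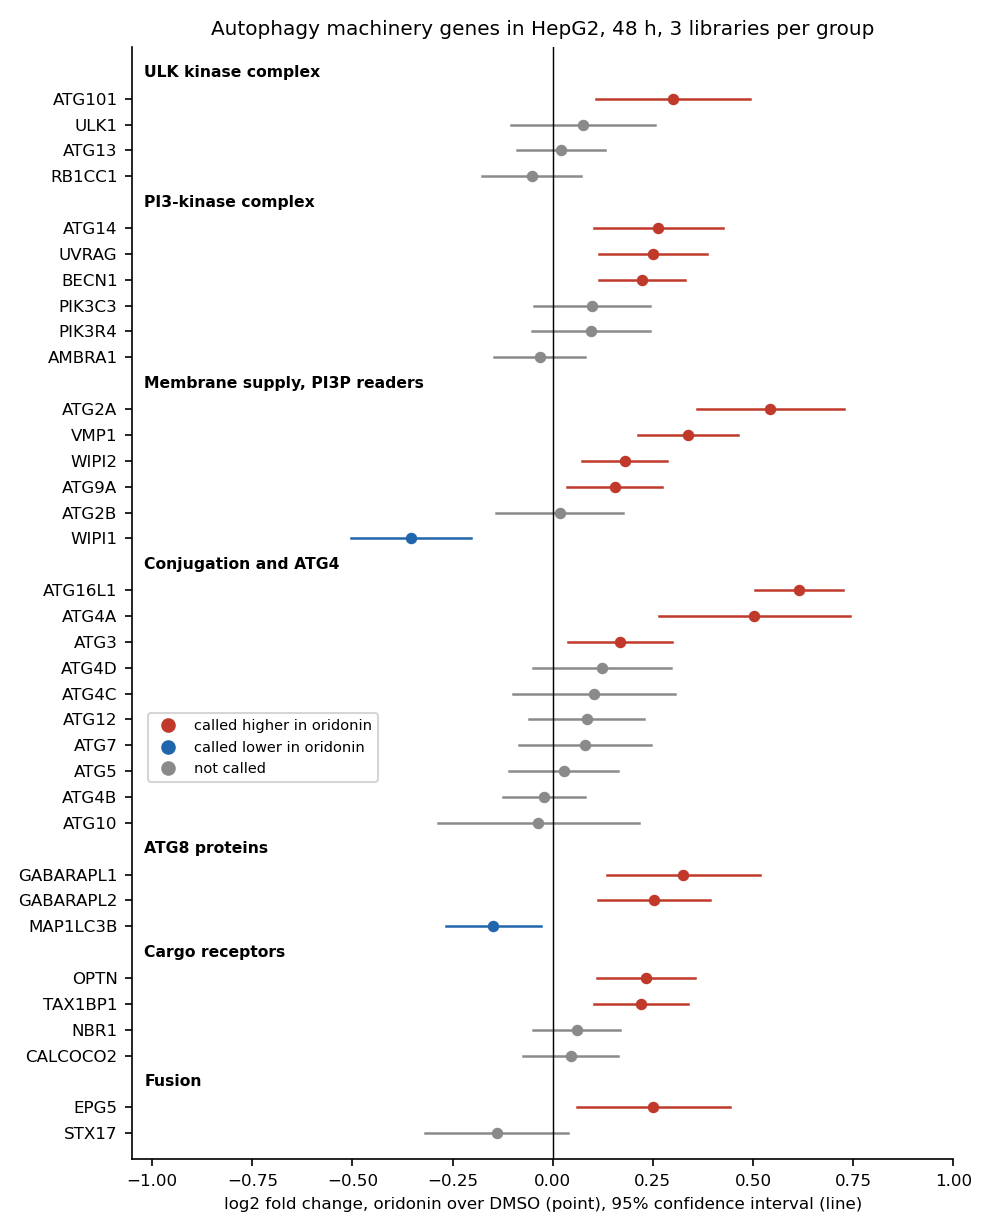
Log2 fold change of each of the 35 tested members (oridonin over DMSO, horizontal axis) with its 95% confidence interval from edgeR, grouped by role, with 3 libraries per treatment. Red points are the 16 members that rose, blue points the 2 that fell and grey points the 17 not called. ATG16L1, ATG2A and ATG4A lie farthest to the right and WIPI1 farthest to the left.

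Promoters are printed for the member with the largest change, ATG16L1, and for those called members that hold either of 2 motifs searched for because factors of autophagy genes or of the oxidant response bind them. Sequences are RefSeq's on GRCh38.p14 and run from 250 bases before to 50 bases after the annotated start, on the strand of the gene. Such a sequence was found for 31 of the 37 members with a deposited log2 FPKM value. ULK2 also had such a sequence and was left out of the shares below. For AMBRA1, ATG2B, NBR1 and OPTN no GENCODE transcript was found to begin within the sequence, and they were kept in the shares. RB1CC1, MAP1LC3A, STX17, UVRAG, ATG4D and EPG5 had no entry that matched. Capitals mark the motif matches: CACGTG, the E-box core bound by TFEB and its relatives, and TGACNNNGC, the core of the antioxidant response element bound by NRF2.
ATG16L1, chr2:233251423-233251722, plus strand, no match: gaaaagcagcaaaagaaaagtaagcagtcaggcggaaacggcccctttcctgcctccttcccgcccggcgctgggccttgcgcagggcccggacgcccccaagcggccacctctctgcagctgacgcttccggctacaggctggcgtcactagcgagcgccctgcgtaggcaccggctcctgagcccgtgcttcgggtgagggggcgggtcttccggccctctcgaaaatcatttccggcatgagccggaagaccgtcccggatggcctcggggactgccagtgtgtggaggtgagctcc
ATG14, chr14:55411781-55412080, minus strand: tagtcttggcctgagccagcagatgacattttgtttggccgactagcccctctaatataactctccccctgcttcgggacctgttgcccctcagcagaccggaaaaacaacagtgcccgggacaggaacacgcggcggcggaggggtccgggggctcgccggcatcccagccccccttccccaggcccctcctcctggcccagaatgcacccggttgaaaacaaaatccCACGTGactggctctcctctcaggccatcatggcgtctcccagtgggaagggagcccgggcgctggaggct
ATG3, chr3:112561913-112562212, minus strand: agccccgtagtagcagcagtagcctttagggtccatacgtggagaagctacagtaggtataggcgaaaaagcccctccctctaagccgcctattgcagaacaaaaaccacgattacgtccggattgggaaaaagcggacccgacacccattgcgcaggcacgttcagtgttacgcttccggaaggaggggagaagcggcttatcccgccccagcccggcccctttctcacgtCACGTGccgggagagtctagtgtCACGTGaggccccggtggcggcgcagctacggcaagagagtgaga
ATG101, chr12:52069728-52070027, plus strand: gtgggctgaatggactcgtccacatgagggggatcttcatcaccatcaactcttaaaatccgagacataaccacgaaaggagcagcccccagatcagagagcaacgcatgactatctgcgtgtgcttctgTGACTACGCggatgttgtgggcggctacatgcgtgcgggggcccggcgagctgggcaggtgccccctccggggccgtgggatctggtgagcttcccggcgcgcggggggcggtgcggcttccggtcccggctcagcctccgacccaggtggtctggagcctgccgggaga
MAP1LC3B, chr16:87392086-87392385, plus strand: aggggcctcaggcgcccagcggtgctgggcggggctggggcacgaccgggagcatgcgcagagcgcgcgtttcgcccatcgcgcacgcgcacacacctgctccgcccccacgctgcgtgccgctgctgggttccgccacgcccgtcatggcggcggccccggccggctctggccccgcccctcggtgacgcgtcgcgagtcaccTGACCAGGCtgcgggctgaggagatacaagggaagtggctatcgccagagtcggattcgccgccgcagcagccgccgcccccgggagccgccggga
The E-box of ATG14 begins at position -21 relative to the start and the first of those of ATG3 at position -18. The antioxidant response element core begins at position -120 in ATG101 and at position -46 in MAP1LC3B. CACGTG, which reads the same on both strands, was present in the promoters of 2 of the 31 members (6.45%) and in 7.43% of all 27305 promoters. The longer CLEAR element, in which GT precedes the E-box core and AC follows it, was present in 0 of the 31 and in 0.381% of all promoters. TGACNNNGC on either strand was present in 3 of the 31 (9.68%; the third is CALCOCO2) and in 13.6% of all promoters. GTAAACA, a FOXO site searched for on both strands, was present in 1 of the 31 (3.23%; CALCOCO2) and in 3.41% of all promoters. None of these 4 motifs stood in a larger share of member promoters than of all promoters. A match is a description of the letters and does not show binding.

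In the ULK complex, which receives the starvation signal from the kinases mTOR and AMPK, 1 of 4 tested members rose and 0 fell. For this and each later role, the background is the 20.6% of all tested genes that rose and the 21.3% that fell. At 5 CPM or more it is 23.0% and 26.6%. The roles are small, and their counts were not tested against either background. ATG101, which stabilises ATG13, rose. It stood at 35.0, 31.6 and 40.2 CPM in oridonin libraries 1 to 3, against 25.7, 30.5 and 30.1 CPM in DMSO libraries 1 to 3. The lowest oridonin library was just above the highest DMSO library, with a log2 fold change of 0.30 ± 0.09 (SE, n = 3 each; edgeR adjusted p = 0.0143). The call was lost without DMSO replicate 1 (0.22; adjusted p = 0.0514) and without oridonin replicate 3 (0.21; adjusted p = 0.0575), and by limma on log2 FPKM (adjusted p = 0.0573). Of the 50-base words in ATG101 transcripts, 17.1% also occur in transcripts of other genes, all in antisense.

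The kinase subunit and the scaffolds of the same complex were not called. ULK1, the kinase, had 54.4, 52.1 and 58.5 CPM in oridonin, against 49.7, 46.7 and 60.2 CPM in DMSO, with a log2 fold change of 0.08 (95% confidence interval -0.10 to 0.26; edgeR adjusted p = 0.5). DMSO replicate 3 was the highest of the 6 libraries, and without it ULK1 was called higher, at 0.19 (adjusted p = 0.0171). ATG13, the adaptor that links ULK1 to the rest of the complex, had 81.3, 86.3 and 82.1 CPM in oridonin, against 79.5, 81.2 and 85.3 CPM in DMSO. The groups overlapped, and the interval of its log2 fold change, -0.09 to 0.13, leaves room for only a small difference. RB1CC1, also known as FIP200, the large scaffold, had a log2 fold change of -0.05 (edgeR adjusted p = 0.507). ULK2, the other kinase of this family, had 2 counts summed over the 3 oridonin libraries and 4 over the 3 DMSO libraries, at which no difference was detectable.

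Of the 6 members of the PI3K complexes 3 rose and 0 fell. BECN1 (Beclin 1), the scaffold to which regulators bind, rose. It had 73.0, 71.0 and 71.2 CPM in oridonin, against 60.3, 62.1 and 62.1 CPM in DMSO. The libraries of each treatment lay close together, with means of 71.7 ± 1.08 CPM in oridonin and 61.5 ± 1.06 CPM in DMSO (SD, n = 3 each), a log2 fold change of 0.22 ± 0.05 (SE; edgeR adjusted p = 0.00198). Of its 50-base words, 14.1% also occur in transcripts of other genes, nearly all in antisense. ATG14 and UVRAG bind BECN1 in place of each other, ATG14 in the complex that makes autophagosomes and UVRAG in the one that acts on endosomes and on maturation.

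ATG14 rose as well, with 18.2, 18.4 and 16.7 CPM in oridonin, against 14.2, 15.2 and 15.0 CPM in DMSO (log2 fold change 0.26 ± 0.08, SE; edgeR adjusted p = 0.00995). UVRAG rose with 34.9, 34.6 and 32.6 CPM in oridonin, against 30.1, 28.0 and 27.8 CPM in DMSO (0.25 ± 0.06, SE; edgeR adjusted p = 0.00429). For BECN1, ATG14 and UVRAG the groups did not overlap, and all 3 calls held under each of the 13 alternative settings. The catalytic subunit PIK3C3 (VPS34) and its regulatory subunit PIK3R4 were not called, each with a log2 fold change of 0.10 and intervals of -0.05 to 0.24 for both. AMBRA1, a scaffold that ties this complex to the ULK complex, stood at 51.7 ± 0.906 CPM in oridonin and 52.8 ± 1.47 CPM in DMSO (SD, n = 3 each; log2 fold change -0.03, edgeR adjusted p = 0.663).

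The proteins that supply lipid to the growing membrane and read PI3P held the widest spread of changes, with 4 members higher, 1 lower and 1 not called. ATG2A, which carries lipid from the endoplasmic reticulum into the autophagosome membrane (ENSG00000110046; hg38 chromosome 11, 64894546 to 64917248, minus strand), rose 1.46-fold. It had 81.3, 74.7 and 89.7 CPM in oridonin, against 53.4, 51.3 and 63.7 CPM in DMSO. Every oridonin library lay above every DMSO library, for a log2 fold change of 0.54 ± 0.08 (SE, n = 3 each; edgeR adjusted p = 0.000226). Its paralog ATG2B was not called, at 19.98 ± 1.29 CPM in oridonin and 19.8 ± 1.01 CPM in DMSO (SD, n = 3 each; log2 fold change 0.02, interval -0.14 to 0.17).

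The ratio of ATG2A to ATG2B within a library, which no scaling between libraries can change, averaged 2.95 ± 0.193 on the log2 FPKM scale in oridonin and 2.41 ± 0.234 in DMSO (SD, n = 3 each). The groups did not overlap. This is 1 of 6 ratios between members that were compared, chosen after the fold changes were seen. Each sets a member that moved beside one that did not or that moved the other way, so a difference follows from the choice, and the ratios are given as a description with no test.

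VMP1, a membrane protein of the endoplasmic reticulum that works at the site where the autophagosome forms, had the highest level per length of all members and rose (ENSG00000062716; hg38 chromosome 17, 59707192 to 59842255, plus strand). It had 253.5, 264.1 and 242.4 CPM in oridonin, against 205.1, 214.5 and 182.1 CPM in DMSO, a log2 fold change of 0.34 ± 0.06 (SE, n = 3 each; edgeR adjusted p = 0.000192). All oridonin libraries were above all DMSO libraries. ATG9A, whose vesicles seed the membrane, had 200.2, 194.6 and 213.8 CPM in oridonin, against 176.3, 173.5 and 197 CPM in DMSO. The highest DMSO library exceeded the lowest oridonin library, and the call was marginal (0.15 ± 0.06, SE; edgeR adjusted p = 0.0365). It was lost when any one of DMSO replicate 1, DMSO replicate 2, oridonin replicate 1 or oridonin replicate 3 was left out, with log2 fold changes of 0.13, 0.12, 0.16 and 0.12 in that order, and with total counts as the only scaling the value was 0.23. The call was also lost by DESeq2 (adjusted p = 0.0693) and by limma on log2 FPKM (adjusted p = 0.0903). Of the words in ATG9A transcripts, 33.6% also occur on the same strand in an overlapping transcript. It belongs to AC068946.2, which is not among the genes with deposited counts.

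The WIPI proteins bind PI3P, and WIPI2 brings ATG16L1 to the membrane. WIPI2 rose, at 80.4 ± 1.58 CPM in oridonin and 70.9 ± 1.70 CPM in DMSO (SD, n = 3 each; log2 fold change 0.18, edgeR adjusted p = 0.00845). WIPI1 (ENSG00000070540; hg38 chromosome 17, 68420948 to 68457513, minus strand) fell, and it was the member with the largest decrease. It had 25.8, 24.8 and 24.0 CPM in oridonin, against 28.6, 33.1 and 33.5 CPM in DMSO, without overlap, a log2 fold change of -0.35 ± 0.07 (SE, n = 3 each; edgeR adjusted p = 0.000719) or 1.28-fold lower. The log2 ratio of WIPI2 to WIPI1 in FPKM averaged 0.29 ± 0.0755 in oridonin and -0.23 ± 0.0987 in DMSO (SD, n = 3 each). By FPKM WIPI2 was thus above WIPI1 in each oridonin library and below it in each DMSO library. That order rests on the deposited lengths, 8977 bases for WIPI2 and 3402 bases for WIPI1. In CPM WIPI2 was above WIPI1 in all 6 libraries. Of the words in WIPI1 transcripts, 24.4% also occur in other genes, most of them in antisense in ARSG, and the strand setting of the counting is not given in the sources used here.

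**Figure D2:**
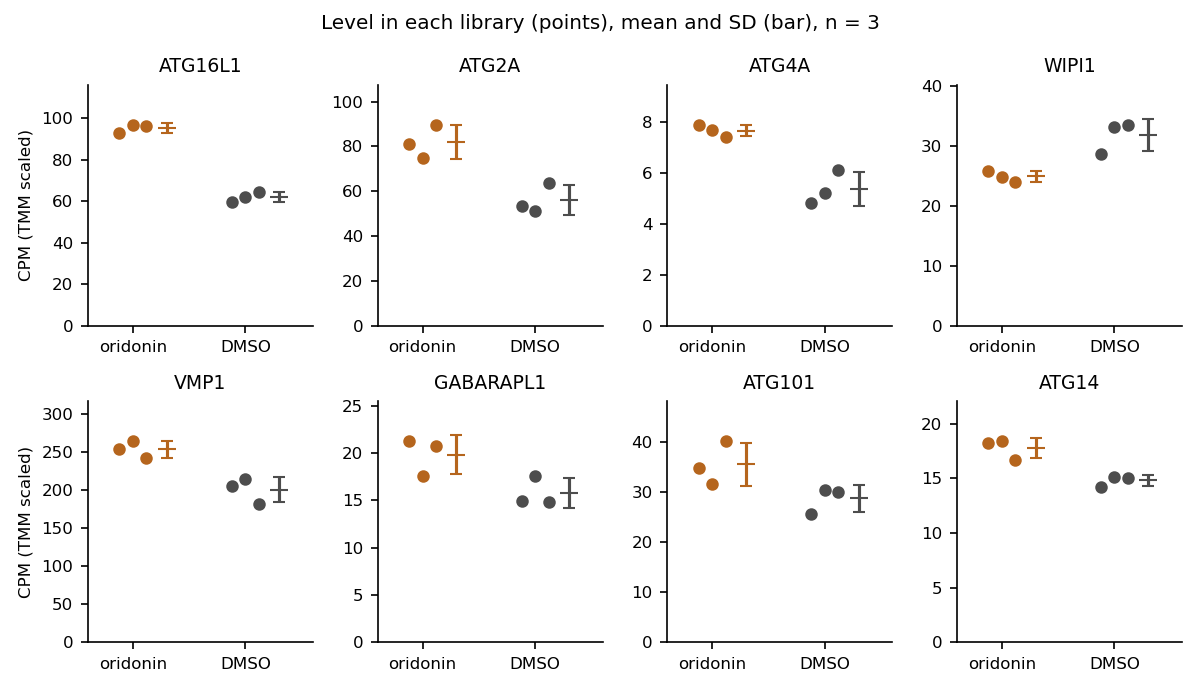
Level in each library (CPM with TMM scaling, vertical axes from 0) of the 8 called members with the largest changes, oridonin at the left and DMSO at the right of each panel. Points are the 3 libraries and bars the mean with SD. In 7 of the panels the groups do not overlap. For GABARAPL1 oridonin replicate 2 lies among the DMSO libraries.

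Of the 10 members of the conjugation systems and the ATG4 proteases 3 rose, 0 fell and 7 were not called. ATG16L1 (ENSG00000085978; hg38 chromosome 2, 233210051 to 233295674, plus strand) is the subunit that targets the ATG12-ATG5 conjugate to the membrane, and its promoter stands above. It rose 1.53-fold, the largest change among the members. It had 92.6, 96.8 and 96.2 CPM in oridonin, against 59.7, 62.2 and 64.6 CPM in DMSO. The gap between the groups was far wider than the spread within either, with a log2 fold change of 0.61 ± 0.05 (SE, n = 3 each; interval 0.50 to 0.72; edgeR adjusted p = 7.8e-08). None of its 50-base words occurs in a transcript of another gene.

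The partners of ATG16L1 in the same complex were not called. ATG5 stood at 29.1 ± 0.877 CPM in oridonin and 28.6 ± 1.38 CPM in DMSO (SD, n = 3 each; log2 fold change 0.03, interval -0.11 to 0.16). ATG12, the ubiquitin-like protein joined to ATG5, had a log2 fold change of 0.08 (interval -0.06 to 0.23). The log2 ratio of ATG16L1 to ATG5 in FPKM averaged 1.097 ± 0.0569 in oridonin and 0.51 ± 0.0802 in DMSO (SD, n = 3 each), without overlap. ATG7, the activating enzyme for both ubiquitin-like systems, had a log2 fold change of 0.08 (edgeR adjusted p = 0.434), and 16.4% of its words occur in other genes in antisense. ATG10, the enzyme that passes ATG12 to ATG5, was the least abundant tested member per length and had a log2 fold change of -0.04 with a wide interval of -0.29 to 0.22.

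ATG3, the enzyme that hands ATG8 proteins to the lipid phosphatidylethanolamine, was called higher at 33.6 ± 0.549 CPM in oridonin and 29.9 ± 1.24 CPM in DMSO (SD, n = 3 each; log2 fold change 0.17, edgeR adjusted p = 0.0378). The groups did not overlap, but the call was lost by DESeq2 (adjusted p = 0.122) and on leaving out any one of the 6 libraries. The log2 fold change was then 0.18, 0.19 and 0.13 without DMSO replicates 1 to 3 and 0.18, 0.17 and 0.16 without oridonin replicates 1 to 3. Its promoter holds the E-box pair printed above.

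The ATG4 proteases cut ATG8 proteins before they are joined to lipid and release them afterwards. ATG4A (ENSG00000101844; hg38 chromosome X, 108091668 to 108154671, plus strand), which in biochemical work prefers the GABARAP branch, rose 1.42-fold. It had 7.90, 7.68 and 7.44 CPM in oridonin, against 4.83, 5.23 and 6.13 CPM in DMSO, without overlap (log2 fold change 0.50 ± 0.11, SE, n = 3 each; edgeR adjusted p = 0.00169). ATG4B, the most abundant of the family and the main protease of this step, was not called, with 126.2, 127.1 and 128.6 CPM in oridonin, against 127.6, 126 and 134.3 CPM in DMSO. Its interval of -0.12 to 0.08 on the log2 scale is among the narrowest of the members. The log2 ratio of ATG4A to ATG4B in FPKM averaged -2.87 ± 0.0551 in oridonin and -3.41 ± 0.140 in DMSO (SD, n = 3 each), without overlap. ATG4C and ATG4D were not called, at log2 fold changes of 0.10 and 0.12. Without DMSO replicate 3 ATG4D was called higher, at 0.22 (edgeR adjusted p = 0.0269). Of its words, 10.5% occur in other genes in antisense.

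**Figure D3:**
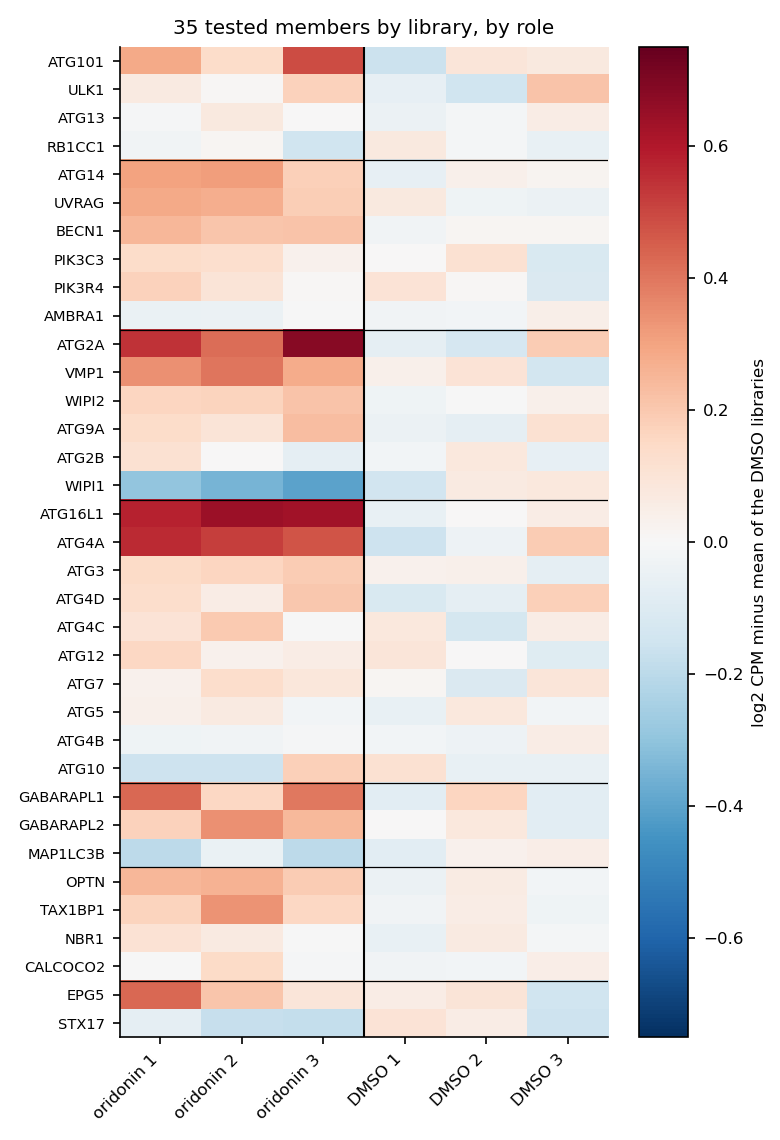
Level of the 35 tested members (rows, grouped by role and separated by lines) in the 3 oridonin and 3 DMSO libraries (columns), as log2 CPM minus the mean of the DMSO libraries. ATG16L1, ATG2A and ATG4A are red and WIPI1 is blue in each oridonin library. Most other rows are paler.

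The ATG8 proteins are the ubiquitin-like proteins that coat the autophagosome, in an LC3 branch (MAP1LC3A and MAP1LC3B) and a GABARAP branch (GABARAP, GABARAPL1 and GABARAPL2). Of the 3 tested, 2 rose and 1 fell. GABARAPL2 had 37.4, 42.1 and 39.3 CPM in oridonin, against 33.2, 35.1 and 31.4 CPM in DMSO, without overlap, a log2 fold change of 0.25 ± 0.07 (SE, n = 3 each; edgeR adjusted p = 0.0053). GABARAPL1 had 21.3, 17.5 and 20.8 CPM in oridonin, against 14.9, 17.6 and 14.9 CPM in DMSO. It was called higher (0.33 ± 0.09, SE; edgeR adjusted p = 0.00786) although oridonin replicate 2 lay just below DMSO replicate 2. Both calls held under each of the 13 alternative settings.

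MAP1LC3B (LC3B), whose lipidated form is the usual protein marker of autophagosomes, had 99.2, 109.9 and 99.3 CPM in oridonin, against 107.6, 116.2 and 117.8 CPM in DMSO. Oridonin replicate 2 lay within the DMSO range, and the call as lower was marginal (log2 fold change -0.15 ± 0.06, SE, n = 3 each; edgeR adjusted p = 0.0427). The call was lost in 8 of the 13 alternative settings, over which the adjusted p ran from 0.00211 to 0.331. Among these 8 were the settings without DMSO replicate 2 (-0.14), without DMSO replicate 3 (-0.13), without oridonin replicate 1 (-0.12), without oridonin replicate 3 (-0.12) and with total counts as the only scaling (-0.07). A share of 4.82% of its words occurs on the same strand in MAP1LC3B2.

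The remaining ATG8 genes were near the limit of detection. MAP1LC3A had 9, 7 and 8 counts in oridonin libraries, against 1, 1 and 2 counts in DMSO libraries. Its rate over all counts was 5.44 times as high in oridonin (24 against 4 counts; 95% counting interval 1.87 to 21.6, Clopper-Pearson), at a two-sided exact permutation p of 0.1, the smallest possible. It did not pass the filter on low counts. With no such filter, edgeR gave an adjusted p of 0.0214. GABARAP had 4, 2 and 8 counts in oridonin, against 1, 5 and 3 counts in DMSO, a ratio of 1.41 (interval 0.568 to 3.69; two-sided exact permutation p = 0.6). Of its words, 48.9% occur in transcripts of other genes, 28.2% on the same strand. These genes, AC120057.2, AC120057.3 and AC096533.1, averaged 0, 6.5 and 1.67 counts per library. Whether reads of GABARAP were left out at counting or placed elsewhere was not tested. Intervals on counts cover counting error only.

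The make-up of the ATG8 pool was described as each gene's share of the summed FPKM of the 5 genes. The shares and the sum take GABARAP at its counted level, near 0, and would differ if its reads were lost at counting. They also rest on the deposited gene lengths, such as 5313 bases for MAP1LC3B and 3034 bases for GABARAPL2. MAP1LC3B took 51.3%, 53.0% and 50.5% in oridonin libraries, against 58.1%, 57.8% and 61.1% in DMSO libraries, a difference of -7.42 percentage points. GABARAPL2 took 33.8%, 35.7% and 35.0% in oridonin, against 31.3%, 30.5% and 28.5% in DMSO, a difference of 4.69 points. For both the groups did not overlap, at a two-sided exact permutation p of 0.1 (0.167 after adjustment over the 5 genes), which cannot be smaller with 3 libraries against 3. GABARAPL1 took 13.0% ± 1.78 in oridonin and 10.7% ± 0.682 in DMSO (SD, n = 3 each; exact permutation p = 0.2), with overlap. The sum itself was 37.7 ± 1.51 FPKM in oridonin and 36.1 ± 1.59 FPKM in DMSO (SD, n = 3 each; two-sided exact permutation p = 0.4). Like the shares, the ratios do not depend on the scaling of the libraries: the log2 ratio to MAP1LC3B averaged -2.00 ± 0.238 in oridonin and -2.47 ± 0.130 in DMSO for GABARAPL1, and -0.57 ± 0.0351 in oridonin and -0.97 ± 0.114 in DMSO for GABARAPL2 (SD, n = 3 each), without overlap.

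**Figure D4:**
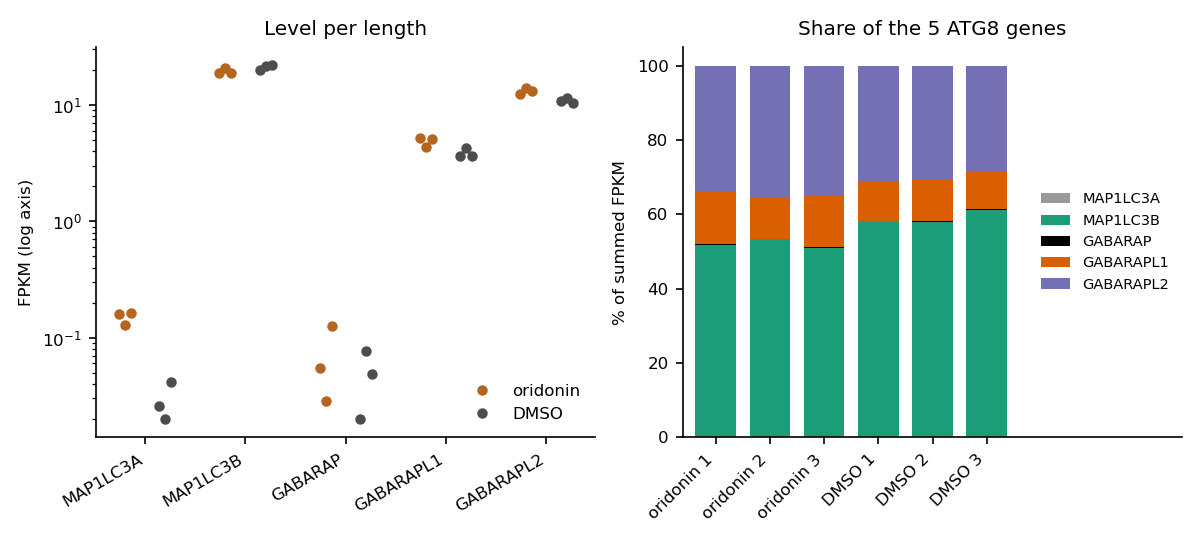
Left, level per length (FPKM, log axis) of the 5 ATG8 genes in each library, oridonin beside DMSO. Right, each gene's share of their summed FPKM (%) in the 3 oridonin and 3 DMSO libraries. MAP1LC3B takes 50.5% to 53.0% in oridonin libraries and 57.8% to 61.1% in DMSO libraries, while MAP1LC3A and GABARAP, the second taken at its counted level, take under 1% in each.

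Of the 4 cargo receptors listed as members, 2 rose and 0 fell. OPTN (optineurin), a receptor for damaged mitochondria and bacteria, had 47.7, 48.2 and 45.8 CPM in oridonin, against 39.0, 41.8 and 39.6 CPM in DMSO, without overlap (log2 fold change 0.23 ± 0.06, SE, n = 3 each; edgeR adjusted p = 0.00363). TAX1BP1, a receptor for protein aggregates and ubiquitin-coated cargo, had 154, 173.1 and 152.8 CPM in oridonin, against 135.1, 142.8 and 134.3 CPM in DMSO, also without overlap (0.22 ± 0.06, SE; edgeR adjusted p = 0.00422). NBR1, which gathers ubiquitin-coated aggregates, was not called, with 132.9, 129.3 and 123.1 CPM in oridonin, against 118.7, 129.3 and 121.8 CPM in DMSO (0.06, interval -0.05 to 0.17). CALCOCO2 (NDP52), a receptor for bacteria and mitochondria, was not called either, with 71.8, 79.7 and 71.6 CPM in oridonin, against 70.6, 71.1 and 74.5 CPM in DMSO (0.04, interval -0.07 to 0.16). The intervals of OPTN (0.11 to 0.36) and TAX1BP1 (0.10 to 0.34) overlap both of these, and differences between the receptors were not tested.

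Both fusion members were weakly resolved. EPG5, a tether between autophagosome and lysosome, was called higher, with 30.4, 26.1 and 24.1 CPM in oridonin, against 23.4, 24.1 and 20.3 CPM in DMSO (log2 fold change 0.25 ± 0.09, SE, n = 3 each; edgeR adjusted p = 0.0348). The groups overlapped, and the call was lost without DMSO replicate 3 (0.18), oridonin replicate 1 (0.15) or oridonin replicate 2 (0.27), by DESeq2 (adjusted p = 0.0621) and by limma on log2 FPKM (adjusted p = 0.131). STX17, the SNARE protein on the autophagosome, was not called (-0.14, interval -0.32 to 0.04; edgeR adjusted p = 0.200). Without DMSO replicate 3 it was called lower (-0.22, adjusted p = 0.0425).

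Levels per length placed the members over a wide range. They rest on the length deposited for each gene, so the order of the members depends on it. PIK3C3 and ATG3 both averaged 33.6 CPM in oridonin. At deposited lengths of 15182 and 6111 bases they stood at 2.23 and 5.52 FPKM there. VMP1 was first in both treatments, at 36.9 ± 1.57 FPKM in oridonin and 28.8 ± 2.30 FPKM in DMSO (SD, n = 3 each), beyond the spread of the next, ATG9A, at 25.1 ± 1.30 FPKM in oridonin and 22.3 ± 1.73 FPKM in DMSO. MAP1LC3B and ATG4B followed, and in oridonin, at 19.5 ± 1.19 and 19.3 ± 0.267 FPKM, they did not differ beyond their spread. In DMSO, at 22.3 ± 1.73 and 21.3 ± 1.15 FPKM, ATG9A and MAP1LC3B did not differ beyond theirs. TAX1BP1 was the fifth in both. ATG16L1 was 6th in oridonin at 15.9 ± 0.441 FPKM and 9th in DMSO at 10.2 ± 0.495 FPKM. ATG2A stood at rank 12 in oridonin and 19 in DMSO, and WIPI1 at rank 19 in oridonin and 11 in DMSO. Near the low end, PIK3C3 had 2.23 FPKM in oridonin and 2.06 FPKM in DMSO, ATG7 1.96 FPKM in oridonin and 1.84 FPKM in DMSO, and ATG10 1.17 FPKM in oridonin and 1.19 FPKM in DMSO.

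Further genes of the pathway were taken from 5 lists of 106 symbols in all, of which 98 were tested. Of these 98, 40 rose (40.8%) and 15 fell (15.3%), with a median log2 fold change of 0.13, where 20.6% of all tested genes rose and 21.3% fell. These shares are the background for the list counts that follow as well. Among further core genes and paralogs 8 of 13 rose and 0 fell (median 0.29). ZFYVE1 (DFCP1), a PI3P-binding protein of the site where autophagosomes form, rose to 17.8 ± 0.786 CPM in oridonin, against 10.8 ± 0.349 CPM in DMSO (SD, n = 3 each; log2 fold change 0.72, edgeR adjusted p = 1.5e-06). WDR45 (WIPI4), which works with ATG2 proteins, rose to 44.7 ± 1.21 CPM in oridonin, against 28.99 ± 2.93 CPM in DMSO (0.62; edgeR adjusted p = 2.17e-06). ATG16L2, the paralog of ATG16L1, rose to 26.2 ± 1.59 CPM in oridonin, against 18.2 ± 1.79 CPM in DMSO (0.52; edgeR adjusted p = 4.95e-05).

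Further cargo receptors and mitophagy genes moved in both directions: 8 of 21 rose and 7 fell (median 0.10). SQSTM1 (p62), the best-known receptor and a target of NRF2, had 421, 422 and 452 CPM in oridonin, against 239, 259 and 309.5 CPM in DMSO (log2 fold change 0.68, edgeR adjusted p = 3.17e-05). PINK1, the kinase that marks damaged mitochondria, rose by 0.75 (edgeR adjusted p = 1.39e-05), and CALCOCO1, a receptor for the endoplasmic reticulum and Golgi, by 0.74 (edgeR adjusted p = 3.27e-06). BNIP3, a hypoxia-inducible mitochondrial receptor, fell to 146 ± 3.79 CPM in oridonin, against 211 ± 11.9 CPM in DMSO (SD, n = 3 each; -0.53, edgeR adjusted p = 3.47e-07).

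Of 36 genes that relay nutrient signals through mTORC1 and AMPK, 13 rose and 3 fell (median 0.13). With scaling by total counts 21 were called higher. FLCN, a regulator of the Rag GTPases at the lysosome, rose by 0.38 on the log2 scale (edgeR adjusted p = 0.000108). LAMTOR3, part of the Ragulator anchor, rose by 0.30 (edgeR adjusted p = 0.000489), and RRAGD, a Rag GTPase, by 0.81 at a low level of 2.75 ± 0.369 CPM in oridonin and 1.56 ± 0.171 CPM in DMSO (SD, n = 3 each; edgeR adjusted p = 0.00176). PRKAB2, a subunit of AMPK, fell by 0.36 (edgeR adjusted p = 5.73e-05).

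Among 12 transcription factors known to act on autophagy genes, 3 rose (25.0%) and 4 fell (33.3%), with a median of -0.11. Over all tested genes 20.6% rose and 21.3% fell. Over those that averaged 5 CPM or more, 23.0% rose and 26.6% fell. The list is small, and its shares were not tested against either background. NR1H4 (FXR), the bile acid receptor, which represses autophagy genes in mouse liver, fell to 22.5 ± 1.01 CPM in oridonin, against 51.0 ± 3.92 CPM in DMSO (SD, n = 3 each; log2 fold change -1.18, edgeR adjusted p = 9.8e-10). FOXO1 fell by 0.38 (edgeR adjusted p = 7.44e-05) and FOXO3 by 0.24 (edgeR adjusted p = 0.00177). TFE3, a relative of TFEB, rose by 0.28 (edgeR adjusted p = 0.0018). TFEB itself, named here after its values were seen, fell, with 25.3, 22.7 and 25.9 CPM in oridonin, against 28.0, 29.8 and 37.9 CPM in DMSO (-0.38; edgeR adjusted p = 0.00954). Its call was lost without oridonin replicate 2 (-0.32, adjusted p = 0.0513) and by limma on log2 FPKM (-0.34, adjusted p = 0.0653), and DMSO replicate 3 set much of the size (-0.23 without it). These are transcript levels, whereas TFEB, TFE3 and the FOXO factors are controlled largely by their place in the cell.

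Of 16 tethering and fusion genes beyond STX17 and EPG5, 8 rose and 1 fell (median 0.12). PLEKHM1, an adaptor that joins autophagosomes to late endosomes, rose 1.98-fold, to 77.2 ± 4.03 CPM in oridonin, against 39.0 ± 3.80 CPM in DMSO (SD, n = 3 each; log2 fold change 0.98, edgeR adjusted p = 7.49e-09). VAMP8, the lysosomal SNARE partner of STX17, rose by 0.53 (edgeR adjusted p = 2.84e-06), and VPS18, a subunit of the HOPS tether, by 0.42 (edgeR adjusted p = 7.48e-05). RAB33B, a GTPase that binds ATG16L1, fell to 9.77 ± 0.453 CPM in oridonin, against 12.5 ± 0.0258 CPM in DMSO (-0.35; edgeR adjusted p = 0.00303).

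**Figure D5:**
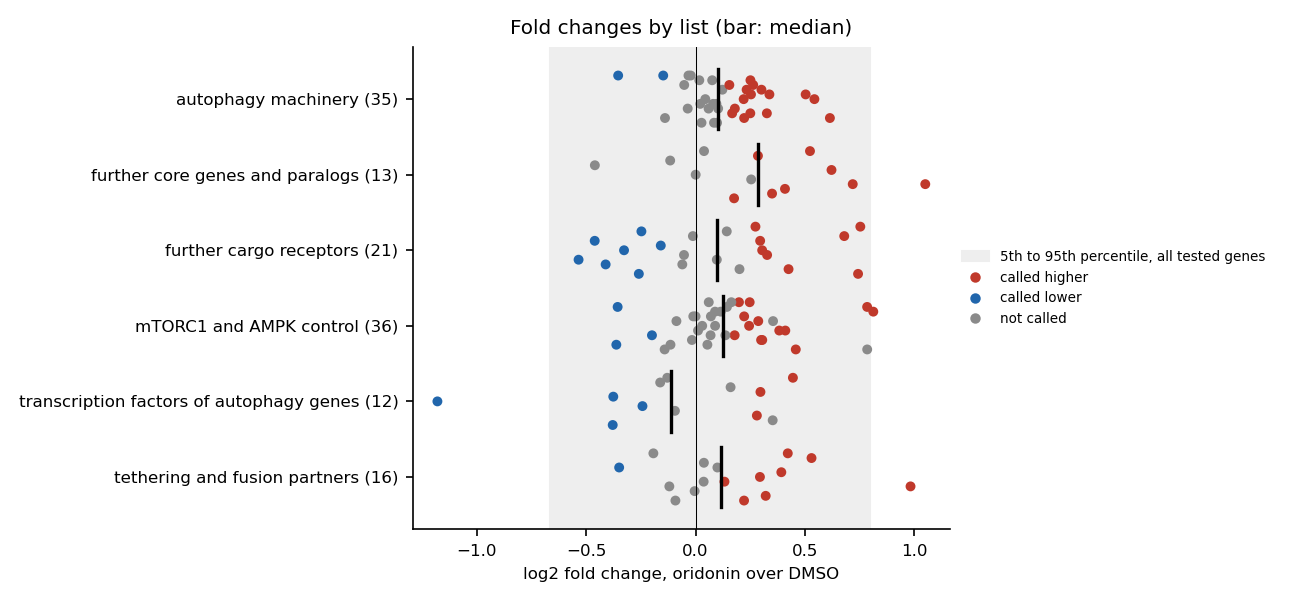
Log2 fold change (oridonin over DMSO, horizontal axis) of each tested gene of the autophagy machinery and of the 5 further lists, with the number tested in brackets. Black bars are the medians, which run from -0.11 for the transcription factors to 0.29 for the further core genes. Colours give the calls, and the grey band is the 5th to 95th percentile of all tested genes, -0.67 to 0.80.

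Markers of other cell types differed between the treatments as well. Of 9 tested gut epithelial markers 6 rose and 1, VIL1, fell. VIL1, which made up most of the sum of the list, stood at 296 ± 8.12 CPM in oridonin and 388 ± 11.5 CPM in DMSO (SD, n = 3 each), and the 9 others summed to between 10.2 and 17.2 CPM in oridonin, against 0.956 to 4.85 CPM in DMSO. Of 7 tested B and plasma cell markers 2 rose and 1 fell, with a sum of 19.4 to 67.6 CPM in oridonin, against 3.28 to 17.3 CPM in DMSO, while the defining B cell marker MS4A1 was at 0 in all 6 libraries. Of 2 tested macrophage markers 0 rose and 1, LYZ, fell, to 433 ± 15.7 CPM in oridonin, against 694 ± 17.1 CPM in DMSO (SD, n = 3 each). The 5 others of that list summed to at most 1.59 CPM in oridonin and 1.87 CPM in DMSO, with MARCO at 0 throughout. Of 4 tested fibroblast and stellate cell markers 2 rose and 1, PDGFRB, fell, to 32.0 ± 1.70 CPM in oridonin, against 60.8 ± 4.47 CPM in DMSO (SD, n = 3 each), and the 6 others summed to between 13.2 and 15.1 CPM in oridonin, against 9.06 to 10.3 CPM in DMSO. The sum of T cell markers was at most 7.22 CPM in oridonin and 5.93 CPM in DMSO, with 1 of 3 tested higher, and that of endothelial markers at most 8.72 CPM in oridonin and 7.51 CPM in DMSO, with 1 of 3 higher and 1 lower. The part of these shifts, and of the lower hepatocyte markers, in the changes of the autophagy genes was not tested.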

How the data were processed

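The authors deposited a table of raw counts per gene and a table of log2 FPKM, both for all 6 libraries. The log2 FPKM table, deposited with 2 decimals, lists exactly the 18404 genes with at least 1 count in each library. The submitters' processing notes name hg38 and DESeq2 1.10.1. No aligner, counter or strand setting is given in the sources used here, so reads of overlapping genes may have been split, dropped or counted for either gene.

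Counts were tested with edgeR 4.0.16 in R 4.3.3 (filterByExpr, TMM, glmQLFit with robust estimation, glmQLFTest) with treatment as the only term, after a check on simulated data. Tested genes held 99.888% to 99.922% of the counts of a library. CPM values use TMM factors. The SE of a log2 fold change is its size over the square root of F. FPKM values are 2 to the power of the deposited values and served for levels between genes, ATG8 shares and, on the log2 scale, ratios. Exact permutation tests are two-sided. Sharing of 50-base words was read from GENCODE 29 transcripts. Alternatives used DESeq2 1.42.0, limma 3.58.1, other scalings and filters, a replicate block and leaving out each library. Between any 2 libraries of a treatment the chi-square of the counts per degree of freedom was 7.22 to 9.44, a spread above counting noise. It does not tell whether the libraries came from separate cultures.

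The members and lists were chosen with earlier results of these data known. Named from each further list were the 3 called genes of lowest p on the side that held more calls, and 1 on the opposite side. Every member is named, and each library's value is given for called members with a log2 fold change of at least 0.4, the ATG8 genes, the 4 most abundant members not called and, beyond that rule, several others.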

Additional observations from a re-analysis of the deposited data

How the results depend on the processing

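Of 455 checks of a tested member under an alternative setting, 405 kept the direction and the side of the threshold, 29 lost a call, 6 gained one and 15 changed sign. Of the 18 called members 13 kept their call and direction in all 13 settings. The exceptions were MAP1LC3B, ATG3, ATG9A, EPG5 and ATG101. The genes named by rule from the further lists kept theirs in 247 of 247 checks, and TFEB, named outside it, in 11 of 13. Members called higher numbered 19 with total counts as the only scaling, 13 by DESeq2's Wald test, 13 by limma on log2 FPKM and 13 to 16 on leaving out a library. Members called lower numbered 1, in place of 2, with total counts, without the low-count filter, by DESeq2 and by limma, and 1 to 2 on leaving out a library. The member median, 0.10 as reported, was 0.18 with total counts, a scaling under which the median over all tested genes also moved, to 0.09 in place of 0.01. It was 0.12 without the filter, 0.12 by limma, and 0.10 to 0.13 on leaving out a library. All sign changes concerned members not called. With total counts RB1CC1 stood at 0.028, AMBRA1 at 0.048, ATG10 at 0.044 and ATG4B at 0.058, small negative values moved above 0 by that common shift. On leaving out a library the log2 fold change of ULK1 ran from -0.0029 to 0.19, that of ATG13 from -0.0049 to 0.049, of ATG2B from -0.034 to 0.059, of ATG5 from -0.0040 to 0.066, of ATG10 from -0.15 to 0.020, of ATG4B from -0.043 to 0.0045 and of CALCOCO2 from -0.0075 to 0.071. The difference in the GABARAP share of ATG8 FPKM, 0.056 points as reported, ran from -0.0195 to 0.113 points on leaving out a library. The cause of the shifts other than that of total counts was not tested. Same-numbered libraries of the 2 treatments deviated together with correlations of 0.194, 0.0651 and 0.173, and each library correlated best with its own number, a hint from the data. The numbers were not taken as pairing the samples, which would have needed every correlation to exceed 0.1 or a label that says so. With a replicate block 16 members were called higher and 2 lower, the median stayed at 0.10, and over all genes 3850 were called higher and 3839 lower. ULK2, GABARAP and MAP1LC3A had few counts, and 3 counts correspond to 0.0976 to 0.135 CPM. For GABARAP a loss of reads at counting was not tested.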
